A study of Mus musculus with 6 samples.

Results

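The 10 genes described here encode enzymes of arginine synthesis (Ass1, Asl), arginine breakdown (Arg1, Arg2), ornithine use (Oat, Odc1), creatine synthesis and use (Gatm, Gamt, Ckb) and nitric oxide synthesis (Nos3). They were chosen by symbol from the 37924 genes of the deposited expression table, and all 10 were found. Values of the comparison below took part in that choice, since Ass1 and Gatm had already been seen to differ between the genotypes. The members' differences between genotypes are therefore given as a description, without a test of each member.

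Whole ovaries of mice of the strain C57BL/6J/129S7/SvEvBrd were profiled by RNA sequencing at postnatal day 14. The control group held 3 libraries from mice homozygous for a floxed allele of Ubc9, without Cre. The other group, called cKO here, held 3 libraries from mice homozygous for the same floxed allele and carrying Gdf9iCre. This Cre recombinase is driven by the promoter of Gdf9, an oocyte gene, so the other cells of the ovary are not its target. Per library, 3 mice gave 1 ovary each to a pool, so errors are those between pools of animals. The level of the floxed gene itself is not reported here.

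Arginine is made from citrulline in a pair of steps. ASS1 joins citrulline to aspartate, and ASL splits the product into arginine and fumarate. Arginases cut arginine into urea and ornithine, which OAT sends towards proline and glutamate and ODC1 turns into putrescine, the first polyamine. GATM moves the amidino group of arginine onto glycine, GAMT methylates the product to creatine, and creatine kinases such as CKB charge creatine with phosphate. Nitric oxide synthases oxidise arginine to nitric oxide and citrulline, which ASS1 can use again. In the ovary, polyamines and nitric oxide have long been studied in follicle growth and ovulation.

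Promoters are shown for 3 members, Ass1, Gatm and Ckb, which had the largest log2 changes of the 10. Each is the 250 bases before the RefSeq transcription start (GRCm38.p6), and the table used held promoters for 6 of the 10 members. Capitals mark matches, on either strand, to any of 7 motifs. These were the TATA box (TATAAA), the GC box (GGGCGG), the CCAAT box, the E-box variant CACGTG, the cyclic AMP response element TGACGTCA, the steroidogenic factor site AAGGTCA and the amino acid response motif TGATGNAA. The Ass1 sequence lies at chr2:31470020-31470269 on the + strand, the Gatm sequence at chr2:122611278-122611527 on the - strand and the Ckb sequence at chr12:111672339-111672588 on the - strand.
Ass1: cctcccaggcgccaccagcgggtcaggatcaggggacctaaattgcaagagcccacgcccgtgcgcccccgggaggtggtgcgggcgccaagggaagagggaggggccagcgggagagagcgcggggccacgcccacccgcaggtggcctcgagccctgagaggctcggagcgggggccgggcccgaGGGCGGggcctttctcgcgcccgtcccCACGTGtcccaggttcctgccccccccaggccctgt
Gatm: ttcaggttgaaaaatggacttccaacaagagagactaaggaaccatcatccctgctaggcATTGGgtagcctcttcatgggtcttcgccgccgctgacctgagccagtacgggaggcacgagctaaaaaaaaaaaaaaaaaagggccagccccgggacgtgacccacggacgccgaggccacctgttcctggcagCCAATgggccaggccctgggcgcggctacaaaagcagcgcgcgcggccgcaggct
Ckb: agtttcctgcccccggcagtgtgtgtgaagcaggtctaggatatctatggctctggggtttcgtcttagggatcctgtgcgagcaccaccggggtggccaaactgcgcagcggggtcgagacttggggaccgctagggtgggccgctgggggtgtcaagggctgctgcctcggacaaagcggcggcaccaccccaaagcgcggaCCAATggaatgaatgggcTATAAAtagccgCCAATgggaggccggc
The Ass1 window held 1 GGGCGG, 63 to 58 bases before the start, and 1 CACGTG, 36 to 31 bases before it. In the Gatm window there were 2 matches to CCAAT, of which the nearer lay 55 to 51 bases before the start. Ckb had a TATAAA 28 to 23 bases before the start and a CCAAT on each side of it. GENCODE M21 places the start of Ass1 63 bases and that of Gatm 26 bases further upstream, so the GGGCGG and the CACGTG of Ass1 are both inside its first exon there. Of 32851 promoter windows of the same length, 32.7% held the GC box, 33.8% the CCAAT box, 12.4% the TATA box and 6.02% the E-box variant. The cyclic AMP response element, the steroidogenic factor site and the amino acid response motif, in 1.55%, 4.08% and 3.45% of all windows, had no match in the windows of the 6 members. Ass1 and Gatm, the members with the highest log2 changes, shared no motif of the 7. The GC content was 75.6% for Ass1, 59.2% for Gatm and 62.8% for Ckb, against a median of 52.4% over all windows, and reached 80.0% for Odc1.

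Levels are in FPKM, which counts fragments per length of transcript and per depth of the library, so levels of different genes can be set side by side. The depth was estimated at 19.6 to 24.9 M fragments per library (M for 1e6). Of 12 oocyte markers and 12 granulosa cell markers, all passed the filter on low values, and the egg coat gene Zp3 and the granulosa cell hormone gene Amh read 265 and 209 FPKM in their lowest libraries. Over 8 adipocyte markers the summed level was 38.2 FPKM in control 3 and 14.7 to 17.2 FPKM in the other libraries. Fabp4 and Cfd carried most of that difference, at 15.2 and 14.0 FPKM in control 3, whereas Plin1, the only one of the 8 that passed (as higher in cKO), was lowest in control 3 at 4.95 FPKM. The summed level of 9 neutrophil markers was 646 FPKM in cKO 3 and at most 1.30 FPKM elsewhere. The library names in the labels carry numbers in 2 ranges of unstated meaning. The first range covers cKO 1 along with every control, and the second covers cKO 2 and cKO 3.

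In control ovaries the highest of the 10 levels was that of Odc1, at 104 ± 9.40 FPKM (SD, n = 3), followed by Oat at 79.8 ± 4.75 and Ckb at 58.0 ± 3.07 FPKM. Gatm came next at 35.9 ± 5.11 FPKM, then Gamt at 31.5 ± 2.02, Asl at 24.6 ± 2.42, Arg2 at 15.7 ± 6.63 and Ass1 at 12.8 ± 4.78 FPKM. Nos3 and Arg1 closed the order at 2.08 ± 0.16 and 0.909 ± 0.279 FPKM. Neighbours in this order whose libraries overlapped were Gatm and Gamt, Asl and Arg2, and Arg2 and Ass1. In cKO ovaries the order was the same except that Ass1 stood in place 6, above Asl and Arg2. There the ranges of Odc1, Oat, Ckb and Gatm formed an overlapping chain from 59.1 to 105 FPKM, and Gamt overlapped Ass1.

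**Figure D1:**
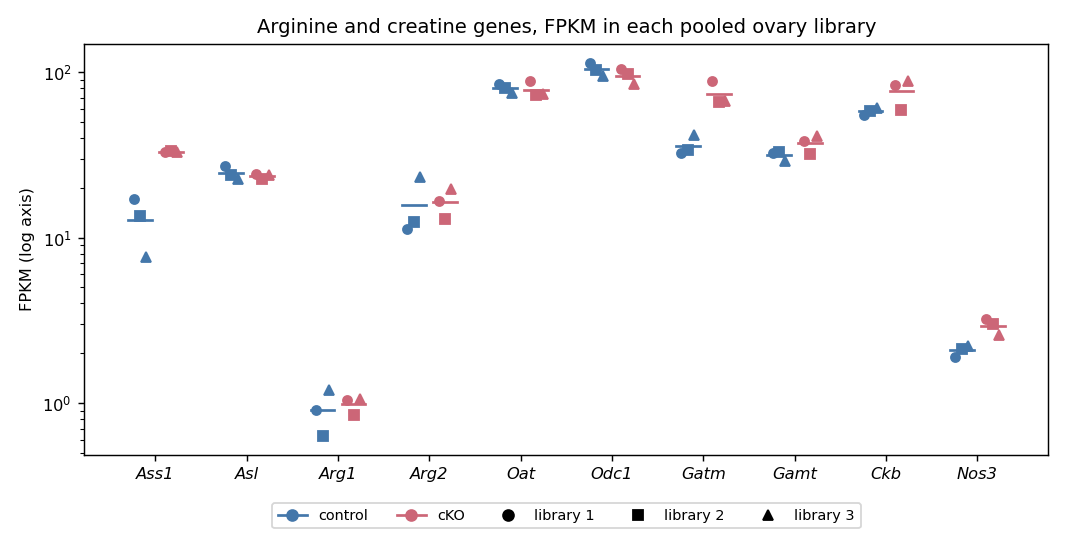
FPKM of the 10 genes (x axis) on a log axis in each of the 3 control (blue) and 3 cKO (red) libraries, with circles, squares and triangles for libraries 1, 2 and 3 and lines for group means. All 3 cKO libraries lie above all 3 controls for Ass1, Gatm and Nos3, and the groups overlap for the other 7 genes.

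Over all genes, 334 of 14934 tested were higher in cKO and 312 were lower at an adjusted p below 0.05 (limma on log2(FPKM + 1), Benjamini-Hochberg adjustment), which is 2.24% and 2.09%. Higher genes made up 51.7% of these calls, 39.1% after quantile normalisation and 30.6% with libraries centred on the median. Of the 10 members, Ass1 and Gatm were among the genes called higher and none among those called lower. With 1 library left out, Ass1 stayed among them in 1 of 6 fits, that without control 3. Gatm stayed in 2 of the 6, those without control 3 or cKO 3. In 3 of the 10, Ass1, Gatm and Nos3, every cKO library was above every control library, and in 0 of the 10 every cKO library was below. Over all genes tested those shares were 18.0% and 12.0%. Of the members, 7 had a positive log2 change, against 58.5% of all genes tested. Their median log2 change was 0.17, against 0.05 over all genes tested. Nothing is read from these counts, as the comparison took part in choosing the genes.

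Ass1 (ENSMUSG00000076441, chr2:31470207-31520672, + strand), for the first step of arginine synthesis, read 17.2, 13.4 and 7.68 FPKM in control 1 to 3 and 32.7, 33.4 and 33.0 FPKM in cKO 1 to 3. The groups did not overlap, and the lowest cKO library was above the highest control. The cKO libraries lay within 1.02-fold of each other, whereas the controls spread over 2.23-fold, with control 3 lowest. Its mean was 2.59-fold higher in cKO, and the log2 change was 1.37 (SE 0.24). Without control 3 the log2 change was 1.07, and without control 1 it was 1.60. The summed adipocyte markers were highest in control 3, the library with the lowest Ass1, and their part in the Ass1 values was not tested. Within the first range of library numbers, the 3 controls against cKO 1, the log2 change was 1.36, while the second range holds cKO libraries only.

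Asl (ENSMUSG00000025533, chr5:130011258-130029247, - strand), for the second step, measured 27.2, 24.0 and 22.5 FPKM in control 1 to 3 and 24.1, 22.5 and 23.9 FPKM in cKO 1 to 3. These groups overlapped throughout, with a log2 change of -0.06 (SE 0.09). The ratio of Ass1 to Asl within a library was 0.630, 0.561 and 0.341 for control 1 to 3. For cKO 1 to 3 it was 1.36, 1.49 and 1.38. Ass1 was thus below Asl in every control library and above it in every cKO library.

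**Figure D2:**
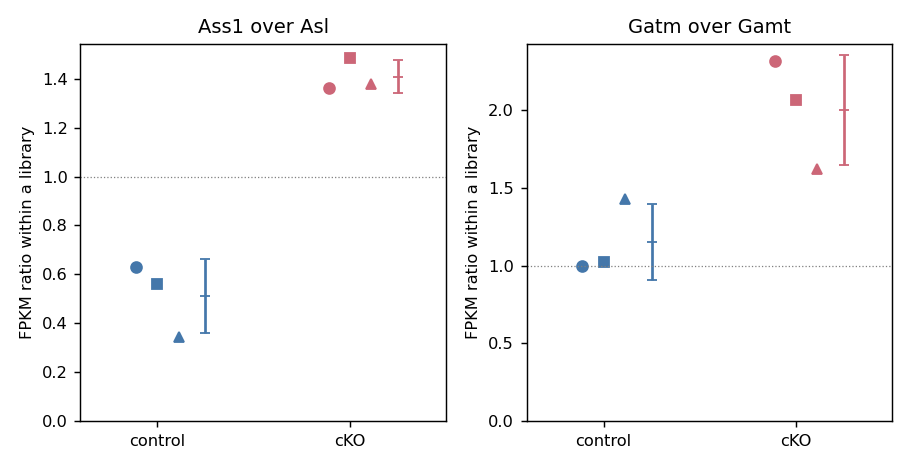
Ratio of FPKM within a library for Ass1 over Asl (left) and Gatm over Gamt (right), for 3 control (blue) and 3 cKO (red) libraries, with circles, squares and triangles for libraries 1 to 3 and mean ± SD beside the points. Both ratios are higher in every cKO library than in any control library, from 1.36 against at most 0.630 for Ass1 over Asl and from 1.62 against at most 1.43 for Gatm over Gamt. Ass1 and Gatm had been seen to differ before the genes were chosen, so the ratios are a description.

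The mitochondrial arginase gene was the more abundant of the arginases. Arg2 (ENSMUSG00000021125, chr12:79130777-79156301, + strand) read 11.2, 12.5 and 23.3 FPKM in control 1 to 3 and 16.7, 12.9 and 19.6 FPKM in cKO 1 to 3. It was highest in control 3, the library with the highest summed adipocyte markers, and its groups overlapped, with a log2 change of 0.11 (SE 0.26). The part of those markers in the Arg2 values was not tested. Without control 3 the log2 change was 0.42, and without control 1 it was -0.08. Of 3049 genes of similar level, 98.4% had a smaller spread within groups than Arg2. Among genes of their own level, that share was 97.7% for Ass1, 91.9% for Ckb and 91.1% for Gatm. Arg2 exons share 285 of 1428 bases with Vti1b on the opposite strand, which read 22.8 to 27.0 FPKM, and 116 bases with the antisense gene Gm48780, so fragments may be shared.

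Arg1 (ENSMUSG00000019987, chr10:24915221-24927484, - strand), the cytosolic arginase of liver and of some macrophages, was the lowest of the 10. It read 0.904, 0.632 and 1.19 FPKM in control 1 to 3 and 1.04, 0.842 and 1.06 FPKM in cKO 1 to 3, with overlapping groups and a log2 change of 0.06 (SE 0.15). These levels stand for an estimated 28.3 to 55.1 fragments per library. Arg2 was 12.4 to 19.8 times as high as Arg1 in the controls and 15.3 to 18.4 times in cKO. Macrophage markers had a summed level of 46.6 to 60.5 FPKM in control and 53.9 to 58.8 FPKM in cKO. Of the 10 genes 0 passed by limma, beside 4.33% of all genes tested. At an unadjusted p below 0.05 there were 0, beside 3630 of all 14934 genes tested. Arg1 in cKO 3, where neutrophil markers were high, was at 1.06 FPKM, inside the range of the other libraries.

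Ornithine use showed no separation of the groups. Odc1 (ENSMUSG00000011179, chr12:17544794-17551505, + strand), which sets the pace of polyamine synthesis, read 114, 103 and 95.3 FPKM in control 1 to 3 and 105, 96.9 and 84.2 FPKM in cKO 1 to 3. Its log2 change was -0.13 (SE 0.11), and cKO 3 alone lay below all controls. Oat (ENSMUSG00000030934, chr7:132557478-132576398, - strand), the mitochondrial ornithine aminotransferase, measured 84.2, 80.6 and 74.8 FPKM in control 1 to 3 and 88.0, 72.5 and 73.4 FPKM in cKO 1 to 3. With a log2 change of -0.04 (SE 0.10), its cKO libraries lay on both sides of the control range.

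Gatm (ENSMUSG00000027199, chr2:122594467-122611303, - strand), for the first and regulated step of creatine synthesis, read 32.3, 33.7 and 41.8 FPKM in control 1 to 3 and 88.4, 66.1 and 66.4 FPKM in cKO 1 to 3. Every cKO library was above every control, with cKO 1 highest. The mean was 2.05-fold higher in cKO, and the log2 change was 1.01 (SE 0.14). Leaving out cKO 1 gave 0.88 and leaving out control 3 gave 1.12. The 3 controls against cKO 1 alone gave a log2 change of 1.29. Stroma markers had a summed level of 600.2, 607 and 662 FPKM for control 1 to 3. For cKO 1 to 3 it was 976, 731 and 739 FPKM, the same order over the 6 libraries as Gatm. Among the single stroma genes only Col1a1 had this order. Tcf21, for example, read 98.5, 88.9 and 80.6 FPKM in control 1 to 3, and Dcn 379, 285 and 262 FPKM in cKO 1 to 3. Of these 6 genes Pdgfra and Tcf21 passed as higher and Fbln1 as lower, beside 2.24% and 2.09% of all genes tested. Pdgfra and Tcf21 were at 24.2 to 27.4 and 80.6 to 98.5 FPKM in control. In cKO they were at 35.0 to 55.4 and 125 to 143 FPKM. No stroma marker was at 0 in any library, and the part of these cells in the Gatm values was not tested.

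Gamt (ENSMUSG00000020150, chr10:80258151-80261012, - strand), which completes creatine, measured 32.4, 32.9 and 29.2 FPKM in control 1 to 3 and 38.1, 32.0 and 40.9 FPKM in cKO 1 to 3. Libraries cKO 1 and cKO 3 were above the controls and cKO 2 was among them, for a log2 change of 0.22 (SE 0.11). Gatm over Gamt was 0.997, 1.02 and 1.43 for control 1 to 3. For cKO 1 to 3 it was 2.32, 2.07 and 1.62. The ratio thus lay higher in each cKO library than in any control, by the least between cKO 3 and control 3.

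Ckb (ENSMUSG00000001270, chr12:111669361-111672338, - strand), the brain-type cytosolic creatine kinase, read 54.9, 58.1 and 61.0 FPKM in control 1 to 3 and 83.2, 59.1 and 88.7 FPKM in cKO 1 to 3. As for Gamt, cKO 2 lay within the control range and cKO 1 and cKO 3 lay above it. The log2 change was 0.38 (SE 0.15) and moved to 0.56 without cKO 2. The summed level of the oocyte markers had the same order as Ckb among the cKO libraries, at 2361, 1781 and 2762 FPKM in cKO 1 to 3. In control 1 to 3 the sum was 1303, 1453 and 1422 FPKM, another order than that of Ckb. Unlike Ckb, the sum in cKO 2 was above every control. Of its 12 genes 4 passed as higher, beside 2.24% of all genes tested. A positive log2 change was seen in 9 of the 12, beside 58.5% of all genes tested. Bmp15, Dazl and Oosp1 had a negative log2 change, and among the cKO libraries they were lowest in cKO 1. Bmp15, for example, read 14.6, 30.9 and 48.6 FPKM in cKO 1 to 3. The part of the oocyte markers in the Ckb and Gamt values was not tested. Whole-ovary RNA cannot tell fewer cells of a type from less RNA per cell.

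Nos3 (ENSMUSG00000028978, chr5:24364810-24384474, + strand), the endothelial nitric oxide synthase, read 1.91, 2.11 and 2.22 FPKM in control 1 to 3 and 3.20, 3.00 and 2.56 FPKM in cKO 1 to 3. The groups did not overlap, and the gap between control 3 and cKO 3 was smaller than the range within cKO. The log2 change was 0.35 (SE 0.11) and ranged from 0.23 with quantile normalisation to 0.47 with a pseudocount of 0.1. Endothelial markers had a summed level of 167 to 180 FPKM in control and 196 to 211 FPKM in cKO. Of these 11 markers 10 had a positive log2 change and 0 passed by limma, beside 58.5% and 4.33% of all genes tested. At an unadjusted p below 0.05 there were 2 of the 11, beside 3630 of all 14934 genes tested. The part of these markers in the Nos3 values was not tested. Nos3 exons share 1040 bases with the antisense gene Gm15587, listed at no more than 0.053 FPKM, and 294 bases with Atg9b, at 0.174 to 0.334 FPKM.

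**Figure D3:**
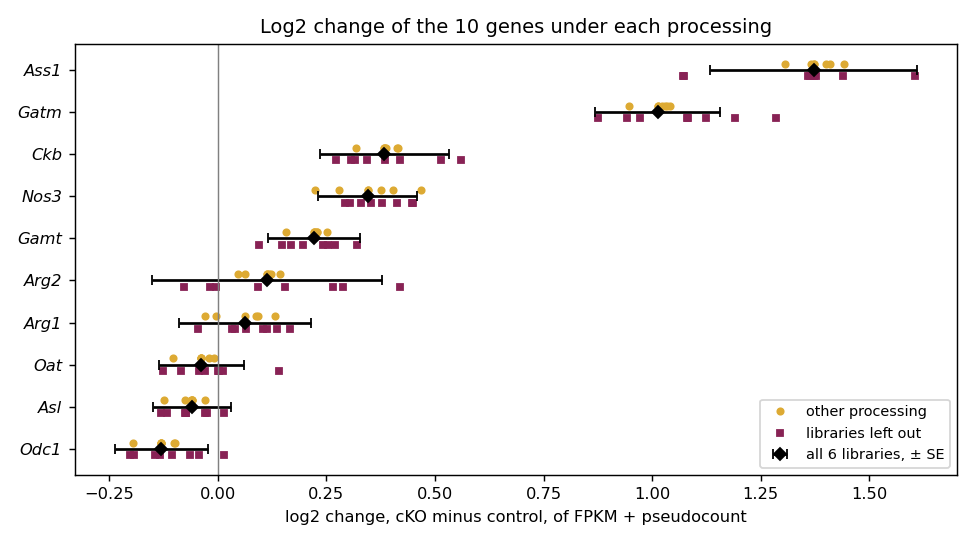
Log2 change (x axis, cKO minus control) of each of the 10 genes (y axis) with all 6 libraries (black diamonds, ± SE), under other pseudocounts, filters and scalings (yellow circles) and with libraries left out (purple squares). Ass1 stays between 1.07 and 1.60 and Gatm between 0.88 and 1.29, while Asl, Arg1, Arg2, Oat and Odc1 fall on both sides of 0.

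Beyond the 10 genes, 64 other genes of these pathways were listed and found, and 54 passed the filter on low values. Of the 54, Nos1 and Azin2 rose and Slc25a13, Nos2 and Ddah1 fell, beside 2.24% and 2.09% of all genes tested. Their median log2 change was -0.01, against 0.05 over all genes tested. Of the 54, 26 were positive, against 58.5% of all genes tested. The 10 that were not tested include Cps1 and Otc, which begin the liver urea cycle, and Ckm, the muscle creatine kinase, whose mean levels were at most 0.039, 0.105 and 0.403 FPKM in either group.

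Nitric oxide synthesis held 3 of these 5 changes. Nos1 (ENSMUSG00000029361, chr5:117781032-117958840), the neuronal-type nitric oxide synthase gene, read 1.90, 1.79 and 2.95 FPKM in control 1 to 3 and 6.01, 6.35 and 4.90 FPKM in cKO 1 to 3. It rose by a log2 change of 1.08 (SE 0.16, adjusted p 0.0222 by limma). Every cKO library was above every control, with control 3 the highest control and cKO 3 the lowest cKO library. The adjusted p stayed below the threshold without control 3 or cKO 3, and was 0.0738 to 0.121 when another library was left out.

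Nos2 (ENSMUSG00000020826, chr11:78920787-78960254), the inducible synthase gene, was the most abundant of the 3 synthases and moved the other way. It read 46.4, 42.8 and 31.6 FPKM in control 1 to 3 and 21.5, 19.9 and 22.2 FPKM in cKO 1 to 3. The log2 change was -0.88 (SE 0.14, adjusted p 0.0264 by limma), and all cKO libraries were below all controls. Of the summed FPKM of Nos1, Nos2 and Nos3, Nos2 made up 92.4%, 91.6% and 86.0% for control 1 to 3. For cKO 1 to 3 it made up 70.0%, 68.0% and 74.9%. The share of Nos3 was 3.81% to 6.03% in control and 8.62% to 10.4% in cKO, and that of Nos1 was 3.79% to 8.01% and 16.5% to 21.7%. Granulosa cell markers had a summed level of 3437 to 4398 FPKM in control and 2219 to 2647 FPKM in cKO. Of the 12 genes 5 passed as lower and 0 as higher, beside 2.09% and 2.24% of all genes tested. Inha was the largest part of the sum, with means of 2017 and 1265 FPKM. A positive log2 change was seen in 4 of the 12, beside 58.5% of all genes tested. Among these 4 were Foxl2 and Kitl, which did not pass. In control and cKO the means were 84.5 and 116 FPKM for Foxl2 and 39.6 and 67.2 FPKM for Kitl. The summed level had the same order over the 6 libraries as Nos2, and its part in the Nos2 values was not tested.

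Ddah1 (ENSMUSG00000028194, chr3:145758675-145894277) encodes an enzyme that breaks down methylated arginines, which inhibit nitric oxide synthases. It read 23.0, 23.2 and 16.8 FPKM in control 1 to 3 and 13.6, 9.68 and 12.8 FPKM in cKO 1 to 3. All cKO libraries were below the controls, and the gene fell by 0.75 on the log2 scale (SE 0.16, adjusted p 0.0483 by limma). Its relative Ddah2, the more abundant of the pair, had control and cKO means of 53.6 ± 2.30 and 65.9 ± 8.08 FPKM (SD, n = 3) and did not pass, at a log2 change of 0.29 and an adjusted p of 0.143 by limma. Gch1, for the first step of the synthase cofactor tetrahydrobiopterin, measured 9.57 ± 0.93 and 6.22 ± 1.14 FPKM (log2 change -0.56, adjusted p 0.0608 by limma) and is named after its values were seen. The calls of Nos2 and Ddah1 held without control 3, and leaving out any other library gave adjusted p-values of 0.0535 to 0.134 for Nos2 and 0.0845 to 0.203 for Ddah1.

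**Figure D4:**
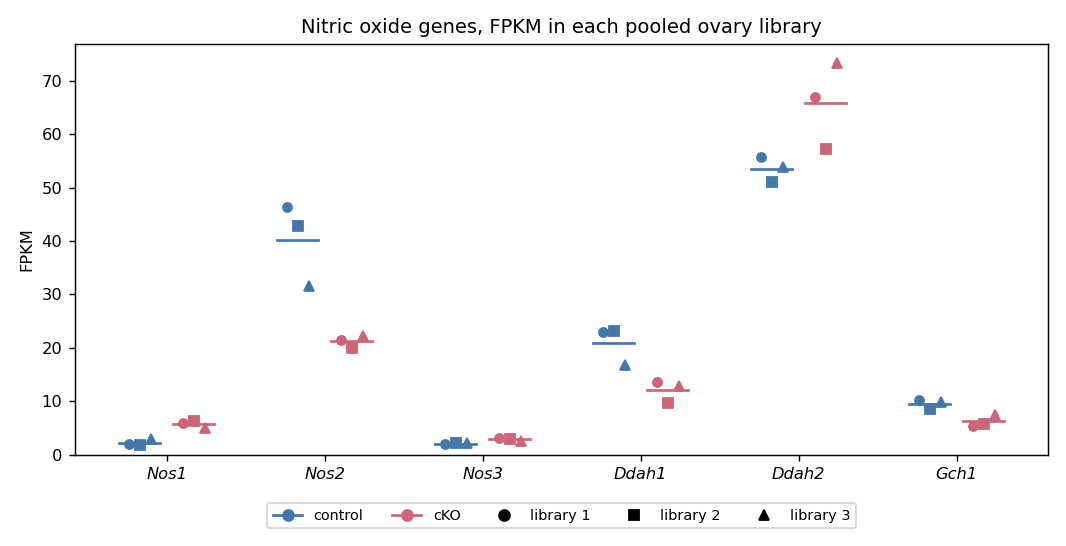
FPKM (linear axis from 0) of 6 nitric oxide genes (x axis) in each of the 3 control (blue) and 3 cKO (red) libraries, with circles, squares and triangles for libraries 1 to 3 and lines for group means. Nos2, Ddah1 and Gch1 are lower and Nos1, Nos3 and Ddah2 higher in every cKO library than in any control, and of these Nos1, Nos2 and Ddah1 passed in the fit over all genes. The groups overlapped for Nosip, Nostrin, Pts and Spr, nitric oxide genes that were tested but are not shown. Over all genes tested, 18.0% were higher and 12.0% lower without overlap.

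The remaining changes were in the list for the urea cycle and citrulline supply, which includes mitochondrial carriers, and in polyamine control. Slc25a13 (ENSMUSG00000015112, chr6:6041218-6217173), a mitochondrial carrier that exports the aspartate used by ASS1, fell from 18.6 ± 3.98 to 9.20 ± 0.58 FPKM (SD, n = 3). Its log2 change was -0.93 (SE 0.15, adjusted p 0.0281 by limma). The values were 21.6, 20.2 and 14.1 FPKM in control 1 to 3 and 9.35, 8.55 and 9.69 FPKM in cKO 1 to 3, so the groups did not overlap and control 3 was the lowest control. The summed granulosa cell markers, at 4398, 4017 and 3437 FPKM for control 1 to 3 and 2568, 2219 and 2647 FPKM for cKO 1 to 3, had this order of libraries too. Of those 12 markers 4 had a positive log2 change, beside 58.5% of all genes tested. The part of the markers in the Slc25a13 values was not tested. Slc25a12, the related carrier gene with the highest level in that list, measured 28.9 ± 1.37 and 29.4 ± 2.56 FPKM and did not pass (adjusted p 0.90). For Slc25a13 the call held without control 3 and was lost without any other single library, at adjusted p-values of 0.0563 to 0.142.

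Of 15 polyamine genes tested, Azin2 alone passed. Azin2 (ENSMUSG00000028789, chr4:128930233-128962442), which encodes an inhibitor of antizyme and so spares ODC1 from breakdown, read 7.67, 6.08 and 7.32 FPKM in control 1 to 3 and 10.4, 11.3 and 9.44 FPKM in cKO 1 to 3. It rose by a log2 change of 0.51 (SE 0.11, adjusted p 0.0498 by limma), just inside the threshold. The call was lost in every fit with 1 library left out, at adjusted p-values of 0.0654 to 0.206, with quantile normalisation (0.0715), with centring on the median (0.0664) or on the reference genes (0.0680) and with no filter (0.111). Oaz1, for the main antizyme and the most abundant of the list, measured 499 ± 38.2 and 449 ± 49.7 FPKM and did not pass (adjusted p 0.424).

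No gene passed among 5 tested for arginine transport, 2 for creatine transport and other creatine kinases, 10 of the proline and glutamate branch and 10 for protein arginine methylation and arginyl-tRNA. At an unadjusted p below 0.05 by limma there were 3, 1, 0 and 0, beside 3630 of all 14934 genes tested. The most abundant in the lists for transport and for methylation were Slc3a2, the shared heavy chain of several amino acid carriers, at 60.9 ± 5.36 and 73.7 ± 8.19 FPKM, Slc6a8, the creatine transporter, at 11.5 ± 0.39 and 13.6 ± 0.81 FPKM, and Prmt1, the main arginine methyltransferase, at 203 ± 22.5 and 197 ± 14.4 FPKM in control and cKO (SD, n = 3). Slc6a8 was higher in every cKO library than in any control, by 0.23 on the log2 scale at an adjusted p of 0.146 by limma.

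The members lie on 5 chromosomes, with pairs or triplets on chromosomes 2, 5, 10 and 12. The nearest tested protein-coding genes on each side were read from the same fit, a comparison added after the members' values were seen. Of these 20 neighbours 1 passed, Chst15, a sulfotransferase gene 240249 bases from Oat, which rose by a log2 change of 0.58 (adjusted p 0.0359 by limma) and is named after its value was seen. Over all genes tested 4.33% passed. Beside Ass1, Hmcn2 and Fubp3 had log2 changes of 0.27 (SE 0.25) and 0.10 (SE 0.09), at adjusted p-values of 0.542 and 0.541. Beside Gatm, Shf and Slc30a4 had 0.13 (SE 0.16) and -0.02 (SE 0.08), at adjusted p-values of 0.663 and 0.881.

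For Ass1, Gatm and Ckb, the 3 genes with the most similar profile were taken from 9463 genes. These had a mean of at least 5 FPKM, and members, mitochondrial genome genes and genes named as gene models or clones were left out. Likeness was the root mean square difference of the centred log2(FPKM + 1) values over the 6 libraries. Nearest to Ass1 were Tnrc18, Peg10 and Col4a4, at 0.23 to 0.29. Gatm was closest to Tgfbi, Pdlim3 and Plau, at 0.060 to 0.11. Nkd1, Fbxw13 and Rbpms2 stood nearest to Ckb, at 0.053 to 0.055. With so many genes and only 6 libraries, close profiles are found for many genes, and these are given as a description. Plau, for example, read 33.6, 30.6 and 34.8 FPKM in control 1 to 3 and 87.9, 67.4 and 66.9 FPKM in cKO 1 to 3.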

How the data were processed

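RNA from 6 pools of ovaries was sequenced on an Illumina HiSeq, per the labels. FPKM values made by the authors were used as deposited. The submitters' processing notes name TopHat2 2.0, Cufflinks 2.0 and mm10 without saying what each did. The sources used here do not give the annotation, the strand setting or the scaling. Libraries were numbered in accession order, as names only. Reads were not used, so no count model was fitted. FPKM is relative to the library total, and abundant transcripts that rise lower the rest.

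Depth was estimated from FPKM values below 0.15 in genes with 1 transcript and at least 1500 exon bases, each read as 1 fragment, after 150 bases were taken off the length. No interval was built on it. Groups were compared with limma 3.58.1 in R 4.3.3 (eBayes with a trend) on log2(FPKM + 1), for genes with a mean of at least 0.5 FPKM, with Benjamini-Hochberg adjustment over all genes tested and a threshold of 0.05. Log2 changes are on that scale and are too small for low genes. The test was checked on data simulated with independent noise in each gene and library, which does not cover shifts shared within a library. P-values measure the spread between pools of animals.

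The 10 members, the pathway and marker lists, the motifs and the alternatives were chosen with earlier results of these data known. Named pathway genes were those that passed and the most abundant of each list. Coordinates and overlaps are from GENCODE M21 (GRCm38, the assembly of mm10), in which 36158 of 37924 identifiers were found. Promoters are from RefSeq. Azin2 and some others were matched through their current symbol's identifier, and 112 of 113 marker genes were found. Results for some genes are not reported here.

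Alternatives were pseudocounts of 0.1 and 0.5, no filter, a mean of at least 2 FPKM, centring on reference genes or on the median, quantile normalisation, and leaving out libraries.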

Additional observations from a re-analysis of the deposited data

How the results depend on the processing

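Over the 15 alternatives, Ass1, Gatm, Gamt, Ckb and Nos3 kept a positive log2 change, and so did Nos1 and Azin2, while Slc25a13, Nos2 and Ddah1 kept a negative one. Calls were less stable. With 1 library left out, genes called higher numbered 0 to 307 and lower 2 to 353, members called higher 0 to 2, and pathway genes 0 to 1 higher and 0 to 5 lower. Without a filter 4 genes were higher and 24 lower over 23854 genes, with 0 members and 0 pathway genes; 4096 genes then had an unadjusted p below 0.05. The 3 controls against cKO 1, the lone library being assumed to vary as the controls did, gave 22 higher and 1 lower, with 0 members and 0 pathway genes and 3541 genes at an unadjusted p below 0.05. With control 3 and cKO 3 left out 204 genes were higher. Centring on the median gave 577 lower genes. Each of the last 2 settings, and centring on the reference genes, left 1 pathway gene higher. Among genes that did not pass, Oaz1 and Prmt1 turned to 0.0092 and 0.047 on the log2 scale with quantile normalisation, and Slc25a12 to -0.043 with centring on the median and -0.072 without control 3 and cKO 3. With 1 library left out, Slc25a12 ranged from -0.041 to 0.079 and Prmt1 from -0.13 to 0.029. The cause was not tested. No paired analysis was possible because libraries carry no replicate number in the labels. Arg1, at an estimated 28.3 to 55.1 fragments, was the member most limited by depth.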
